A study of Mus musculus with 12 samples.

Results

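Hoxc4, Tshz1, Cdx1, Zfp703 and Rai1 are 5 genes of nuclear regulators grouped here as responsive to retinoic acid (RA). They were followed through 12 peak lists from mouse cells, 8 for the retinoid X receptor (RXR) and 4 for acetylation of histone H3 at lysine 27 (H3K27ac), by taking every peak whose nearest annotated gene was one of them, at any distance from the transcription start site (TSS). They are 5 of the 14490 genes named in the lists. Their 45 RXR peaks, of 10124 in all, fell into 17 distinct sites when peaks that overlapped by at least 1 bp were merged, against 5014 merged RXR regions in the whole series. Their 42 H3K27ac peaks, of 66607, fell into 15 regions of 25396. No peak assigned to another gene overlapped any of the 17 RXR sites.

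RXR, a ligand-controlled transcription factor, works in pairs with other nuclear receptors. Paired with a retinoic acid receptor (RAR), it sits on direct repeats of a short half-site, and RA turns the pair from a repressor into an activator of transcription. H3K27ac marks active promoters and enhancers. Hoxc4 and Cdx1 encode homeodomain proteins that set position along the body axis, and Cdx1 itself acts on Hox genes. Tshz1 and Zfp703 encode zinc finger proteins, the latter a corepressor. Rai1, named for its induction by RA, encodes a nuclear protein that binds chromatin.

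All libraries came from wild type E14 mouse embryonic stem (ES) cells, a line grown without feeder cells, or from neural derivatives of that line. The ES cells were kept on gelatin with leukemia inhibitory factor. There, RXR and H3K27ac were each profiled in control cells and in cells given 24 h of GW3965 (an agonist of the liver X receptor), LG268 (an agonist of RXR) or RA, each ligand at 1 µM and with dimethylsulfoxide as the vehicle. Later RXR libraries come from day 8 and day 16 of neural differentiation, for which embryoid bodies receive 5 µM RA before plating on laminin and poly-L-ornithine in N2 medium. Neither day has an arm without RA here. Each ES group has 1 library and each day has 2, and nothing in the labels says that the 2 were grown as separate cultures. A difference within a pair may thus be technical only.

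Read totals are not part of the lists. Library depth is therefore unknown, and a site without a peak is one that was not called at that depth. The RXR lists ran from 409 and 429 peaks at day 16 to 2089 with LG268, with 1089 in the control, 940 with GW3965, 1970 with RA and 1154 and 2044 in the day 8 replicates. Depth, antibody efficiency and binding cannot be told apart in the number of peaks. No test was made, since each treatment has 1 library, and every count describes these libraries. The 3 ligand lists are all read against the same control list. Levels are given as the authors' peak score within a list and as a rank percentile, in which 100 is the highest peak of that list. A percentile depends on how many peaks its list holds. Of 15 pluripotency markers 8 had an H3K27ac peak within 10 kb of the TSS in control ES cells, Pou5f1, Sox2 and Nanog among them, against 5 of 12 neural, 2 of 6 endoderm and 1 of 6 mesoderm markers. The pluripotency markers without one were Dppa5a, Esrrb, Klf4, Prdm14, Tdgf1, Tfcp2l1 and Zfp42. The share of all genes with a peak within 10 kb was not counted. With GW3965, LG268 and RA the pluripotency counts were 8, 5 and 7 and the neural counts 4, 1 and 3. Pou5f1 lacked such a peak with LG268 and RA, while Klf4 and Tfcp2l1 lacked one in the control and not with RA.

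Promoter sequence was at hand for 2 of the 5 genes, Hoxc4 and Rai1 (RefSeq, GRCm38.p6). For Hoxc4 the sequence is shown because the gene carried the most RXR sites and none of them lay in this window: the closest RXR peak lay 3785 bp away, in day 8 replicate 2. The second sequence is that of Gm30528, a long noncoding RNA gene on the opposite strand, whose outermost start lies 26.2 kb downstream of the Hoxc4 TSS. It is shown because an H3K27ac peak of the RA list overlapped this start's window of 300 bp, and the nearest such peak of the control list was 45995 bp away. A GW3965 H3K27ac peak lay 659 bp from this window, so acetylation near this start was not confined to the RA list. Both are the 250 bases before the start, read 5′ to 3′ on the gene's own strand, at chr15:103034145-103034394 (plus strand) for Hoxc4 and chr15:103060556-103060805 (minus strand) for Gm30528. Capitals mark receptor half-sites, which are AGGTCA or its variants AGTTCA or GGGTCA or GGTTCA, searched on both strands with overlaps allowed.

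Hoxc4: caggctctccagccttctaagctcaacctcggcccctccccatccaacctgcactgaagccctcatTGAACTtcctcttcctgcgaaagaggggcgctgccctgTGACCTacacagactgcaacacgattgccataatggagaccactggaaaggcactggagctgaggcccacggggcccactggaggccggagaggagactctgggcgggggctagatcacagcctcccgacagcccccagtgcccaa
Gm30528: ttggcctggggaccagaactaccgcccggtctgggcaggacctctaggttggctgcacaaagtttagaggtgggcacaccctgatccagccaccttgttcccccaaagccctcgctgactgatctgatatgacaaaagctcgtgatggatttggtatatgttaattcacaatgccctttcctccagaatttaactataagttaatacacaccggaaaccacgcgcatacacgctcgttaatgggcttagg

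The Hoxc4 window held 2 half-sites, an AGTTCA starting at -184 bp and an AGGTCA starting at -146 bp from the TSS, both on the opposite strand. Neither this Gm30528 window nor the Rai1 window held any. No direct repeat with a spacer of 0 to 5 bases was found in the 3 windows. Over all 32851 RefSeq promoter windows of 300 bp, 43.7% held at least 1 of these half-sites, 13.1% held at least 2 and 0.907% held such a direct repeat, so a window with 2 is not rare. These letters describe the windows only, and the 17 RXR sites themselves were not searched.

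Every one of the 5 genes had an RXR peak in the LG268 list and in the RA list, 3 had one in the control (Hoxc4, Cdx1 and Zfp703) and none had one with GW3965. At day 8 Hoxc4 and Tshz1 had peaks in both replicates, Zfp703 and Rai1 in replicate 2 alone, and Cdx1 in neither. With the upper 50% of the list by score, with ES lists of equal length or within 10 kb of the TSS, the RA count was 3. At day 16 the sole peak was at Hoxc4 in replicate 1. Of all 14490 genes, 6.89% had a peak in the control, 5.99% with GW3965, 12.4% with LG268 and 11.9% with RA, and 6.31%, 10.8%, 2.33% and 2.19% in the day 8 and day 16 replicates in order. These 5 genes were picked with earlier results of these data known, so their larger shares in the control, LG268, RA and day 8 lists are a description. The same holds for the shares of their sites given below. With GW3965 and at day 16 the counts of 0, 1 and 0 stand beside backgrounds so low that 5 genes can show little.

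**Figure D1:**
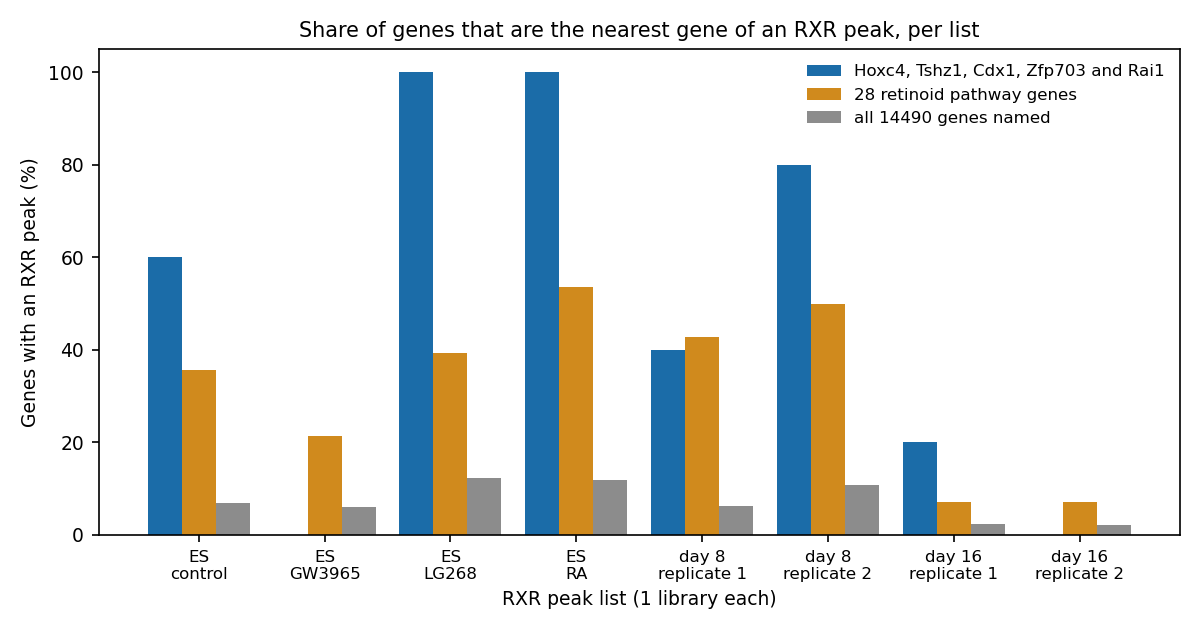
Percent of genes (vertical axis) that were the nearest gene of at least 1 RXR peak in each of the 8 RXR lists (horizontal axis, 1 library each), for the 5 genes, for 28 retinoid pathway genes and for all 14490 genes named in the lists. Of the 28 genes, 21 are named in any list. The 5 genes stand at 100% with LG268 and RA, 60.0% in the control and 0% with GW3965, where the retinoid pathway genes stand at 21.4%.

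Counted by site, 5 of the 17 (29.4%) had a peak in the control, 0 with GW3965, 8 (47.1%) with LG268 and 9 (52.9%) with RA. Over all 5014 RXR regions these shares were 21.6%, 18.7%, 41.5% and 39.1%, so the control, LG268 and RA counts were not far from the background and the GW3965 count was below it. At least 1 ES list held 12 of the 17 sites, against 73.8% of all regions. The day 8 replicates had 9 (52.9%) and 13 (76.5%), against 22.7% and 40.6%. The 9 sites were found in both replicates, against 19.5% of all regions, and 6 of these 9 belong to Hoxc4. Within 10 kb of the TSS the day 8 counts were 3 and 5. Day 16 had 1 site and 0 sites, against 7.88% and 7.86%, and no site in both replicates, against 5.74%. Of the 17 sites, 10 were annotated as intergenic, 6 as intronic and 1 as a promoter, and 8 lay within 10 kb of the TSS. None lay in an annotated repeat element, a class that holds 15.4% to 61.6% of the peaks of the 8 lists. The centres of the peaks merged into 1 site differed by 103.5 bp at most.

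**Figure D2:**
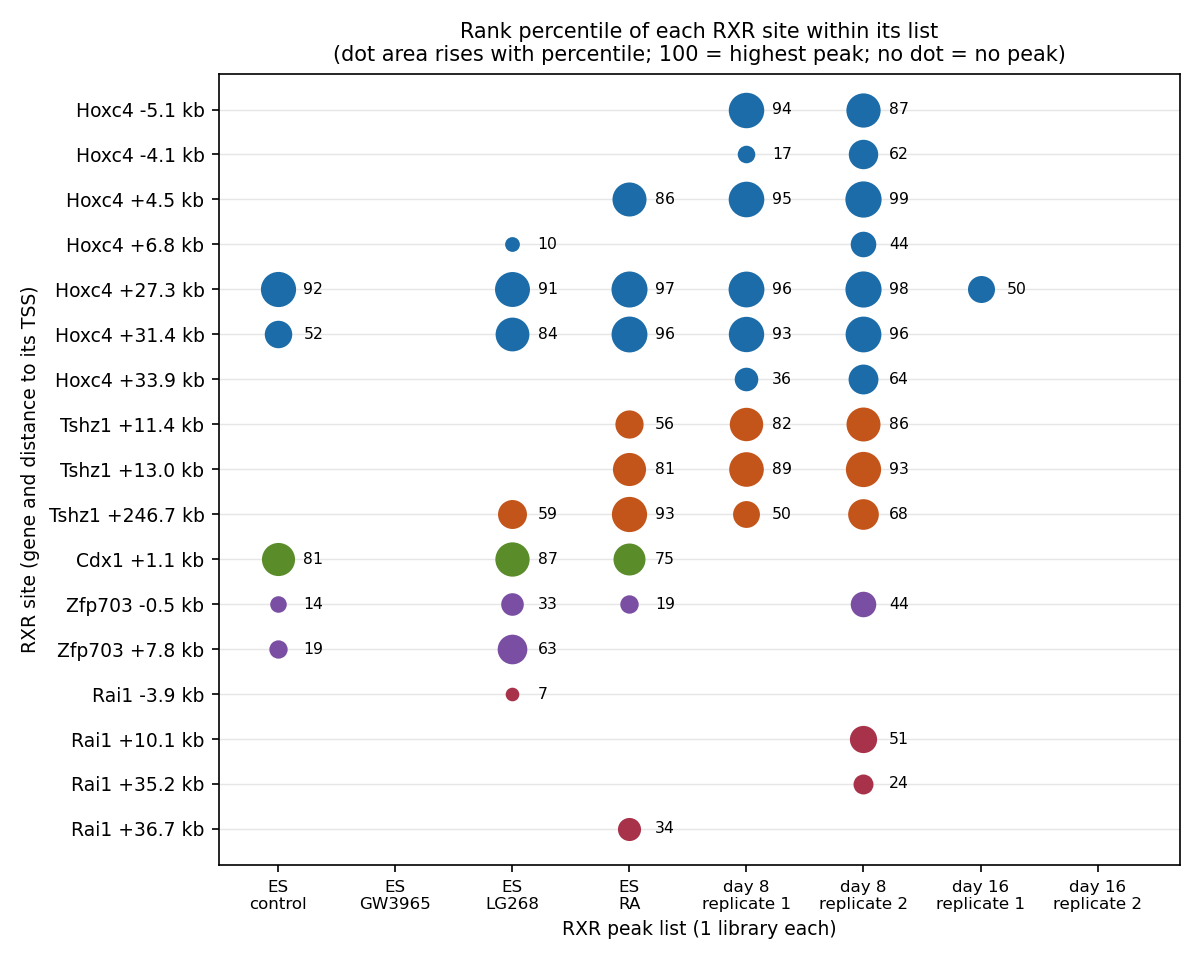
The 17 RXR sites (rows, named by gene and distance to its TSS) in the 8 RXR lists (columns). Each dot is a peak and its label the rank percentile within that list, and the column of GW3965 and that of day 16 replicate 2 are empty.

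Hoxc4 carried 7 sites, and 29 of the 3636 genes with an RXR region (0.798%) had as many or more. All were intergenic in the authors' annotation, 2 of them upstream of the TSS, at -5.1 and -4.1 kb, and 5 downstream, at 4.5, 6.8, 27.3, 31.4 and 33.9 kb. The RefSeq table draws Hoxc4 longer, from 103018097 to 103036856 on chromosome 15, and places the 2 upstream sites inside the gene and the other 5 between 1851 and 31318 bp past its end. The 4 sites nearest to the TSS also fall within Gm30528.

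The site at 27.3 kb (chromosome 15, 103061486 to 103061856) was the most widely found of the 17, with a peak in 6 lists. It ranked 84 of 1089 in the control, 187 of 2089 with LG268, 51 of 1970 with RA, 44 of 1154 and 39 of 2044 at day 8, and 214 of 429 in day 16 replicate 1. It thus stood in the top 10% of 5 lists, and lower in its only day 16 list, at percentile 50.3. The scores were 25.9 in the control, 20.3 with LG268, 43.2 with RA, 67.5 and 96.0 at day 8 and 15.2 at day 16, on scales that may differ between libraries.

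The neighbouring site at 31.4 kb (103065604 to 103065938), 4100 bp away, was found in the same lists apart from day 16. It ranked 519 of 1089 in the control, 325 of 2089 with LG268 and 70 of 1970 with RA, or percentiles 52.4, 84.5 and 96.5. At day 8 its percentiles were 93.4 and 95.9. Within the ES lists it therefore stood lowest in the control and highest with RA, while its neighbour at 27.3 kb stood at percentile 92.4 in the control. In score, the peak at 31.4 kb had 7.96 against 25.9 for its neighbour within the control list and 36.3 against 43.2 within the RA list. Replicate spread for this order is lacking in ES cells.

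The site at 4.5 kb (103038707 to 103039181) had no control, GW3965 or LG268 peak. It ranked 280 of 1970 with RA and 59 of 1154 and 28 of 2044 at day 8, where the score of 104 in replicate 2 made it the highest of the 45 RXR peaks. The site at -5.1 kb (103029177 to 103029488) had no peak in any ES list and ranked 70 of 1154 and 268 of 2044 at day 8. These are the strongest of the Hoxc4 sites missing from control ES cells, and both day 8 replicates held them. The sites at -4.1 and 33.9 kb were also found at day 8 alone, at percentiles 16.6 and 61.6 and percentiles 36.3 and 63.7 in the 2 replicates, a wide spread between replicates. The lowest-ranked site, at 6.8 kb, had a peak at percentile 9.62 with LG268 and 44.2 in day 8 replicate 2.

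**Figure D3:**
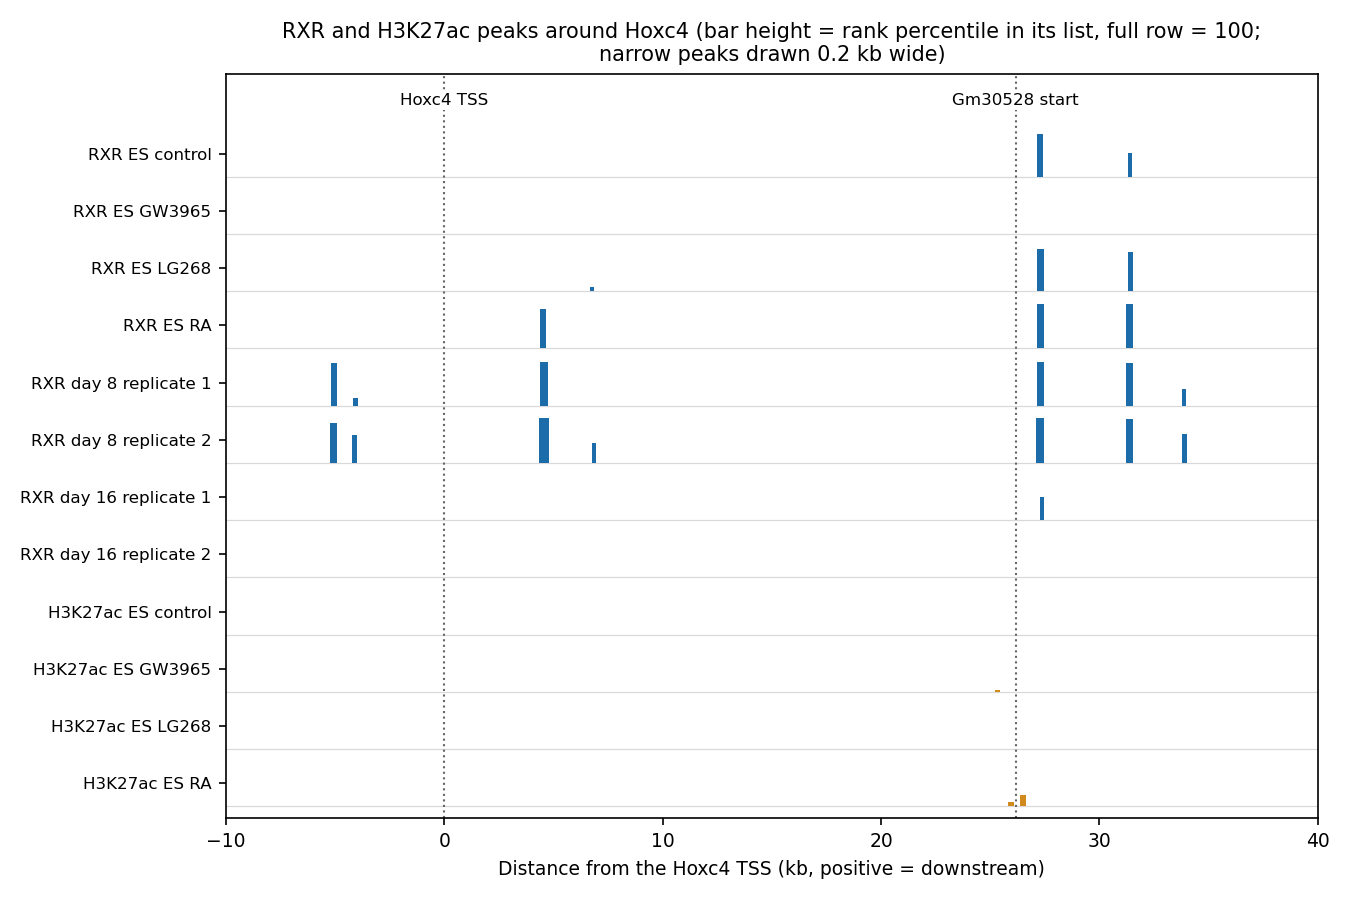
Peaks of the 8 RXR lists (blue) and the 4 H3K27ac lists (orange) by distance from the Hoxc4 TSS in kb. Bar height is the rank percentile within the list, and dotted lines mark the Hoxc4 TSS and the outermost Gm30528 start at 26.2 kb. RXR peaks at 27.3 and 31.4 kb recur from the control to day 8, and the 2 RA H3K27ac peaks lie on either side of the Gm30528 start.

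Acetylation near these sites was sparse. Hoxc4 had no H3K27ac peak in the control or LG268 list. It had 1 with GW3965, at 25.3 kb from the TSS (score 3.15, percentile 4.15), and 2 with RA (scores 3.71 and 5.13, percentiles 9.03 and 24.8). The RA peaks, at 25.9 and 26.5 kb from the Hoxc4 TSS, lay around the Gm30528 start, and the nearer one ended 448 bp short of the RXR site at 27.3 kb. Both thus belong to the lower part of the RA list. In the control the nearest acetylated region to the RXR site at 27.3 kb was 46975 bp away and assigned to Hoxc5. None of the 7 Hoxc4 RXR sites was overlapped by an H3K27ac peak in any of the 4 lists.

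Cdx1 had 1 RXR site, in its first intron 1.1 kb from the TSS (chromosome 18, 61034894 to 61035268), and it was confined to ES cells in these lists. It ranked 211 of 1089 in the control, 266 of 2089 with LG268 and 501 of 1970 with RA, or percentiles 80.7, 87.3 and 74.6. The 3 peaks were 259, 283 and 366 bp wide, and the scores 14.3, 16.4 and 11.2. Of the 4 sites in control, LG268 and RA alike (Hoxc4 at 27.3 and 31.4 kb, Cdx1 and the Zfp703 promoter), it is the one whose RA percentile was below that of the control. The Zfp703 promoter stood at percentile 14.0 in the control (rank 938 of 1089) and 18.9 with RA (rank 1598 of 1970), with scores of 4.48 and 4.72. No peak was called at the Cdx1 site at day 8 or day 16. Cdx1 had no H3K27ac peak in any of the 4 lists. Of the genes named in the lists 65.3% to 88.4% had one, but a gene is named only if it has a peak, which raises these shares. The nearest acetylated region to the Cdx1 site lay 56528 bp away with LG268 and at least 141161 bp away in the other lists.

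Tshz1 had 3 RXR sites and no control peak, and 7.12% of the genes with an RXR region had 3 or more. Paired sites lay in its intron at 11.4 kb (chromosome 18, 84074986 to 84075295) and 13 kb (84073360 to 84073717) from the TSS, 1602 bp apart, and the third lay 246.7 kb downstream in intergenic sequence (83839618 to 83840095), 171532 bp past the gene's end. The far site is assigned to Tshz1 as the nearest TSS, which does not show that it acts on that gene.

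The intronic pair and the far site did not keep 1 order across lists. The site at 13 kb ranked 380 of 1970 with RA and 127 of 1154 and 151 of 2044 at day 8. The site at 11.4 kb ranked 870 of 1970 with RA and 205 of 1154 and 297 of 2044 at day 8. In each of these 3 lists the peak at 13 kb was the higher, with scores of 13.7 against 7.64, 38.1 against 26.8 and 47.0 against 30.9. The far site was the highest of the 3 with RA, at rank 146 and a score of 25.1, and the lowest at day 8, with scores of 9.61 and 15.3. It was also the one Tshz1 site with an LG268 peak, at rank 849 of 2089. The order of the far site and the pair was thus the opposite in RA-treated ES cells and in both day 8 replicates, a difference that was not tested. No Tshz1 site was called at day 16.

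H3K27ac peaks assigned to Tshz1 were weak except with RA. A region in the 5′ UTR, on chromosome 18 from 84085856 to 84086232, had a peak with RA (score 8.0, rank 7270 of 14958, percentile 51.4) and with LG268 (score 2.4, rank 12307 of 12472). A separate GW3965 peak at -0.7 kb had a score of 2.96 and percentile 3.15. No control peak was assigned to Tshz1. Nearby chromatin was acetylated all the same: a region assigned to Zadh2, the gene on the other side of the start, lay 1542 to 1626 bp from the Tshz1 TSS and had a peak in all 4 lists, with scores of 13.2, 14.7, 7.31 and 15.2 in control, GW3965, LG268 and RA. RefSeq draws Tshz1 out to 84087708, past the TSS used here at 84086562. The GW3965 peak at -0.7 kb lies inside that longer gene, and the Zadh2 region lies nearer to its edge than to this TSS. None of the 3 RXR sites of Tshz1 lay under H3K27ac, and the intronic pair stood 10561 bp or more from the nearest acetylated region.

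Zfp703 had 2 RXR sites, both of low rank in most lists, and 22.0% of the genes with an RXR region had 2 or more. The promoter site at -0.5 kb (chromosome 8, 26976748 to 26976984) ranked 938 of 1089 in the control, 1408 of 2089 with LG268, 1598 of 1970 with RA and 1145 of 2044 in day 8 replicate 2. Its percentiles of 14.0, 32.6, 18.9 and 44.0 kept it in the lower part of each of these lists. The other site, 7.8 kb downstream (26984997 to 26985243) and 3535 bp past the gene's end, was found in the control and LG268 lists, at percentiles 18.7 and 62.8, and not with RA. It is the one site of the 17 with a control peak and no RA peak, a pattern of 8.21% of all 3701 RXR regions of ES cells.

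The Zfp703 promoter was acetylated in all 4 conditions. Its region at -0.6 kb had scores of 10.2 in the control, 4.41 with GW3965, 5.51 with LG268 and 10.9 with RA, or percentiles 59.4, 17.9, 32.2 and 67.5. The H3K27ac peak of the RA list contained the RA RXR peak over its whole 173 bp, and that of the control list the control RXR peak over its 161 bp. With LG268 the overlap was 62 of 190 bp. A second region 1.4 kb into the gene had peaks in the control, GW3965 and RA lists, at percentiles 36.3, 9.75 and 1.02, so the promoter and that region did not keep the same order across conditions. Another region, at 0.7 kb, had peaks with GW3965 and RA, at percentiles 5.11 and 7.48, and none in the control.

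Rai1 differed from the other genes in having 4 RXR sites, each found in a single list. Of the 3636 genes with an RXR region, 111 had 4 or more. The share of all RXR regions found in a single list was not counted. Its 2 annotated starts lie 35.1 kb apart. An LG268 peak lay at -3.9 kb from the upstream start, at rank 1940 of 2089. An RA peak lay in intron 1 of the shorter transcript, 36.7 kb from the downstream start, at rank 1292 of 1970. Day 8 replicate 2 had peaks 10.1 kb from the upstream start (rank 996 of 2044) and 35.2 kb from the downstream start (rank 1560). No list held more than 2 of these peaks, and none passed percentile 51.3. The presence of Rai1 in both the LG268 and the RA list rests on 2 different low-ranked sites, 75.7 kb apart.

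Acetylation at Rai1 was called in every ES list. The gene had 6 H3K27ac peaks in the control, 6 with GW3965, 6 with LG268 and 8 with RA, in 6 merged regions, of which 4 had a peak in all 4 lists. The region past the upstream start (chromosome 11, 60105538 to 60107084) had percentiles of 89.6, 89.7, 85.9 and 87.0 in control, GW3965, LG268 and RA, and the region at the downstream start 73.3, 73.0, 74.6 and 70.1. The region 9.9 kb from the upstream start had 83.6, 93.4, 87.1 and 85.5. Its rank was 3515 of 21418 in the control and 1168 of 17759 with GW3965. The fourth, 36.0 kb past the downstream start, varied most of these 4, with 83.9, 72.8, 79.4 and 62.3. The remaining regions, 10.6 kb from the upstream start and 37.0 kb from the downstream start, had no peak with GW3965 or LG268. Their percentiles were 61.4 and 46.7 in the control and 47.8 and 16.7 with RA. Peak length over the gene summed to 5657 bp in control cells, 4523 bp for GW3965, 3460 bp for LG268 and 4324 bp for RA. That is also the order of the list lengths, which were 21418, 17759, 12472 and 14958 peaks, and the part of list length in it was not tested.

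Of the 4 RXR sites of Rai1, 3 lay at or beside these acetylated regions. The site at 10.1 kb was overlapped by H3K27ac in all 4 ES lists, by 160 to 231 of its 231 bp. The RA peak at 36.7 kb fell between 2 acetylated stretches, and overlapped the downstream one by 23 bp in the RA list and 26 bp in the control list. The site at 35.2 kb stood 187 to 260 bp outside the other stretch. No H3K27ac list of day 8 was used here, so the day 8 peaks are read against ES cells.

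**Figure D4:**
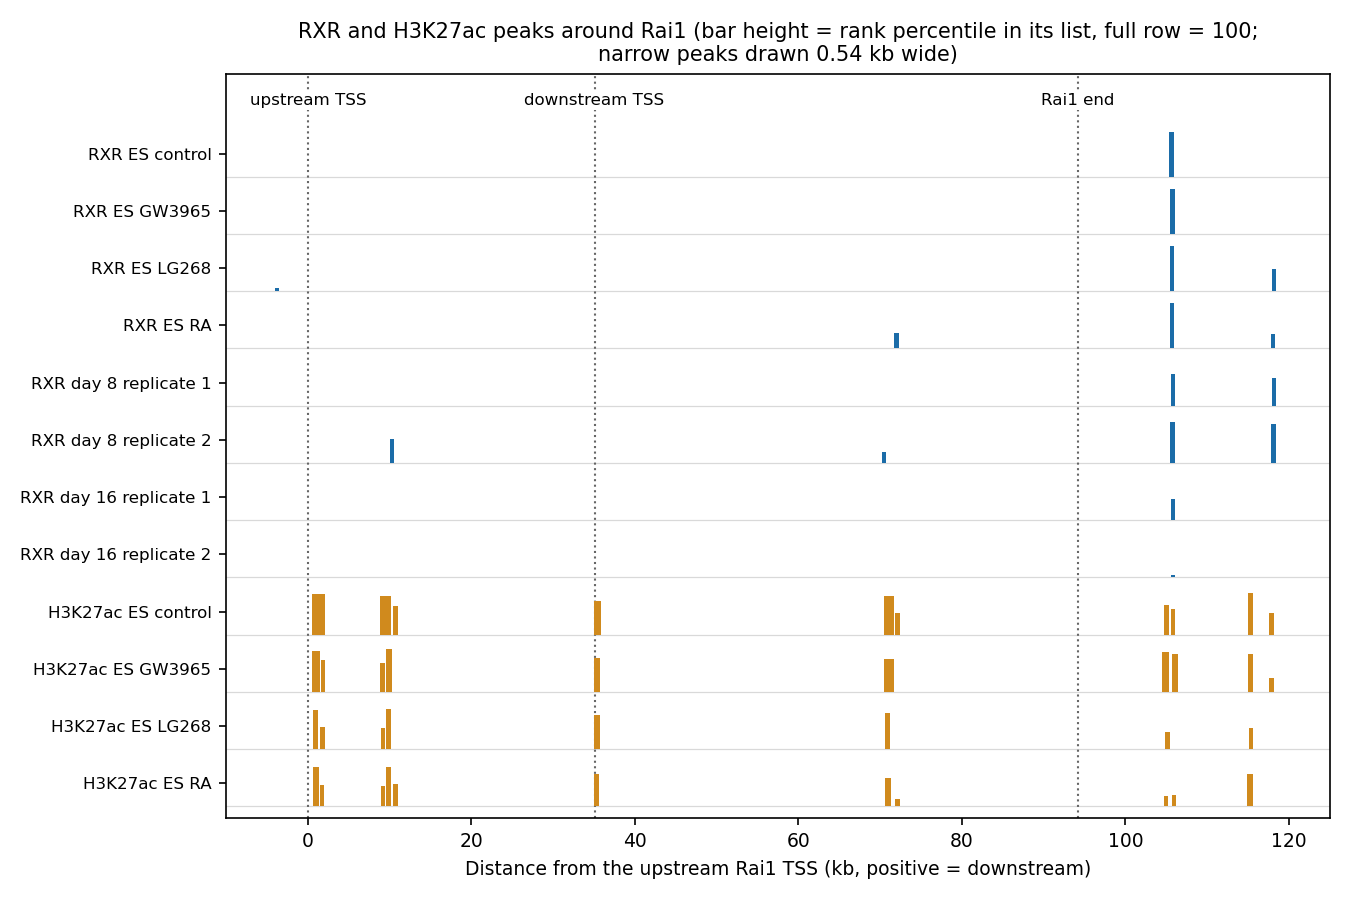
Peaks of the 8 RXR lists (blue) and the 4 H3K27ac lists (orange) by distance from the upstream Rai1 TSS in kb, with bar height as the rank percentile within the list. Dotted lines mark the upstream and downstream starts and the gene's end at 94.2 kb. The RXR peak at 105.6 kb, in all 8 lists, is assigned to the next gene, Srebf1, while no peak within Rai1 recurs.

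H3K27ac peaks were assigned to 2 of the 5 genes in the control, 4 with GW3965, 3 with LG268 and 4 with RA. Of the genes named in the lists 88.4%, 80.7%, 65.3% and 72.8% had one. A gene is named only if it has a peak, which raises these shares. Of the 17 RXR sites of the 5 genes, 3 were overlapped by H3K27ac in the control list, 2 with GW3965, 2 with LG268 and 3 with RA, against 21.0%, 19.0%, 14.7% and 18% of all 5014 RXR regions. The shares of 17.6%, 11.8%, 11.8% and 17.6% were near this background, and with 50% reciprocal overlap the counts were 0, 1, 0 and 0. The overlapped sites were Zfp703 at the promoter, Rai1 at 10.1 kb and, in the control and RA lists, Rai1 at 36.7 kb. No site of Hoxc4, Tshz1 or Cdx1 was among them. The 15 H3K27ac regions were called 8 times in the control, 10 times with GW3965, 6 times with LG268 and 12 times with RA. Of all 25396 regions 81.2%, 67.1%, 46.4% and 55.6% were called, so the 5 genes had fewer regions in the control (53.3%) and more with RA (80.0%) than the series as a whole. The genes were picked with earlier results of these data known, and 6 of the 15 regions are of Rai1, so this is a description. An RA peak without a control peak was seen in 4 regions, at Hoxc4 (2), Tshz1 and Zfp703, against 6.62% of all regions, and a control peak without an RA peak in none, against 32.3%. The Hoxc4 and Zfp703 regions among them stood below percentile 25. In the RA list, Hoxc4 at 25.9 kb ranked 13609 and Zfp703 at 0.7 kb ranked 13840 of 14958. Both ranks lie beyond 12472, the length of the shortest H3K27ac list. These region counts were not recomputed with lists of equal length. Peaks in all 4 lists were found for 5 of the 15 regions (33.3%), near the 36.2% of all regions.

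**Figure D5:**
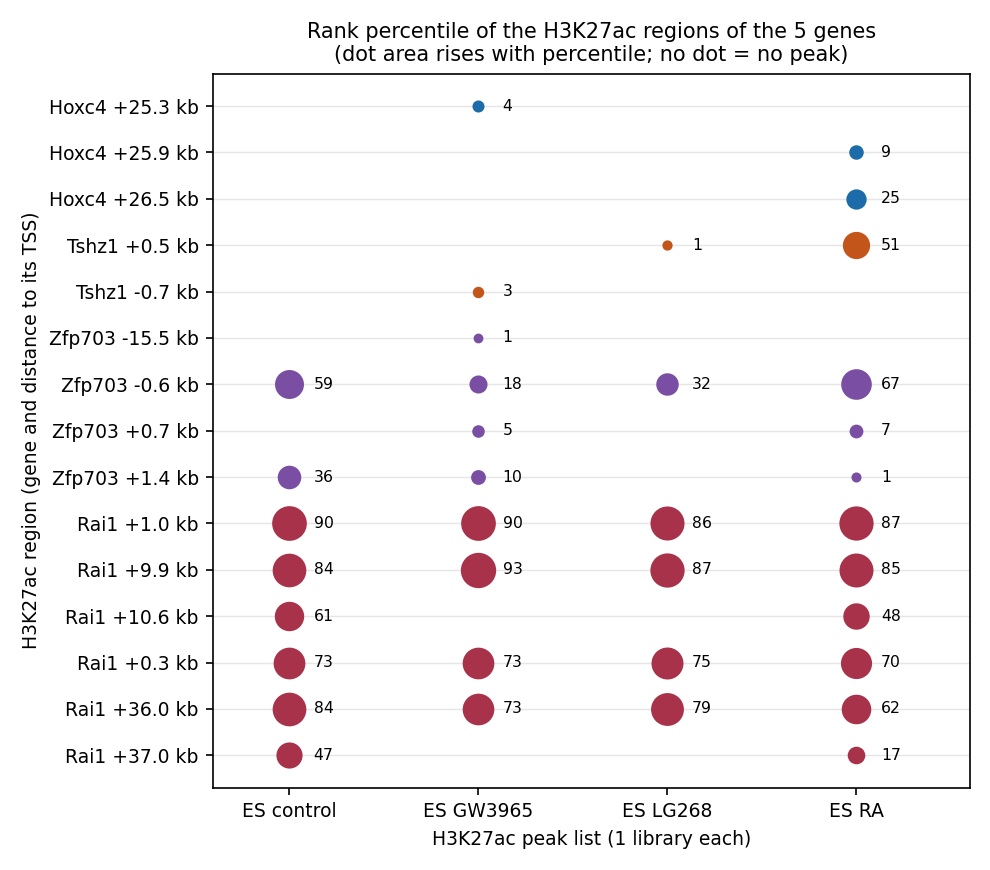
The 15 H3K27ac regions of the 5 genes (rows, gene and distance to the nearest TSS) in the 4 ES lists (columns), with the rank percentile beside each dot. Rai1 has 6 of the 15 rows, of which 4 are filled in every column, Hoxc4 and Tshz1 have no control peak, and Cdx1 has no region.

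Setting RA against the control site by site, 12 sites had a peak in at least 1 ES list. RA added 5 (Hoxc4 at 4.5 kb, the 3 of Tshz1 and Rai1 at 36.7 kb), kept 4 of the control's 5. Of all 3701 ES regions 29.2% had a control peak, and 71.9% of those also had an RA peak, so keeping 4 of 5 is near the background. Over all ES regions, 32.0% had an RA peak and no control peak, so 5 of 12 (41.7%) is near that. LG268 added 3 (Hoxc4 at 6.8 kb, Tshz1 at 246.7 kb and Rai1 at -3.9 kb), against 35.2% of all regions, and kept all 5 control sites, against 72.4% of all regions with a control peak. Counting peaks up to 10 kb from a TSS, RA added 1 site and LG268 2, so their order turned, and with ES lists of equal length they added 4 and 1. Peaks in control, LG268 and RA without one with GW3965 were found at 4 of the 12 sites, against 12.2% of all ES regions. The RA additions stood at percentiles 85.8, 55.9, 80.8, 92.6 and 34.5, and those of LG268 at 9.62, 59.4 and 7.18. GW3965 added none, where 18.7% of all ES regions had a GW3965 peak without a control peak. It kept 0 of 5, where 22.7% of all regions with a control peak also had a GW3965 peak.

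Of the 9 RA sites, 6 had a peak in both day 8 replicates (Hoxc4 at 4.5, 27.3 and 31.4 kb and the 3 of Tshz1) and a seventh, the Zfp703 promoter, in replicate 2. Over all RXR regions with an RA peak, 26.5% had a peak in both day 8 replicates. Of the 5 control sites, 2 were found in both, against 32.8% of all regions with a control peak. The 6 sites belong to only 2 of the genes. Sites with a day 8 peak and no ES peak numbered 5 of 17 (Hoxc4 at -5.1, -4.1 and 33.9 kb and Rai1 at 10.1 and 35.2 kb), or 29.4% against 24.2% of all regions. The 4 sites that replicate 2 had and replicate 1 did not (Hoxc4 at 6.8 kb, the Zfp703 promoter and both of Rai1) ranked 996 to 1560 of 2044, and replicate 1 held 1154 peaks in all. They were the lowest peaks of the 5 genes in replicate 2.

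Among 28 other genes of retinoid transport, metabolism and signalling and textbook RAR targets, 10 had an RXR peak in the control, 6 with GW3965, 11 with LG268 and 15 with RA, and 12 and 14 in the day 8 replicates. At day 16 there were 2 in each replicate, Rarb and Dhrs3. The shares were 35.7%, 21.4%, 39.3% and 53.6% in ES cells, 42.9% and 50% at day 8 and 7.14% in both day 16 replicates, and 21 of the 28 are named in any list. They are shares of all 28, while the shares of all genes given above count named genes only. The GW3965 peaks, where the 5 genes had none, included those at Rarb, Cyp26b1, Rxra, Dhrs3 and Aldh1a2. Rarb, which encodes a retinoic acid receptor, held ranks 52 of 1089 in the control and 27 of 1970 with RA, close to the 84 and 51 of the Hoxc4 site at 27.3 kb.

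Relatives of the 5 genes were counted in the same way. Of 17 paralogues and Hox neighbours (7 of them named in any list), 1 had an RXR peak in the control, 0 with GW3965, 0 with LG268 and 2 with RA. The shares of all 17 were 5.88% in the control and 11.8% with RA, or 1 and 2 of the 7 named. The shares of all genes, 6.89% and 11.9%, count only genes named in a list, so the bases differ. Both day 8 replicates had 4 (23.5% of the 17, against 6.31% and 10.8% of all named genes), namely Hoxa4, Hoxb4, Tshz3 and Zfp503. Zfp503, the relative of Zfp703, had its peak 1.64 kb from the TSS in the control (percentile 49.5) and near the same position with RA (75.3) and at day 8 (40.7 and 87.6). Tshz3, like Tshz1, had no control peak. Its RA peak was low (percentile 4.62, against 92.6 for the best of Tshz1), and its best day 8 peaks stood at percentiles 79.3 and 95.3. These Tshz3 peaks lay 179551 to 179627 bp from its TSS, and within 100 kb it had a peak in day 8 replicate 2 alone. None of the 8 other Hoxc genes had an RXR peak assigned to it in any of the 8 lists. Hoxc5 had H3K27ac peaks in the control and with RA, and Hoxc9 in the control, with GW3965 and with RA.

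The genes whose pattern came closest to each of the 5, by the mean absolute difference of the best rank percentile over the 8 RXR lists, differed in how close they came. Hoxc4 was closest to Pla2g15 (a mean difference of 7.18 percentile points) and Gm5136 (8.31). Tshz1 was closest to Qk (3.24) and Adm (4.73), although Adm has a control peak. Cdx1 was closest to Sesn1 (0.748) and Iba57 (1.28). Zfp703 was closest to Shank2 (3.0) and Nfix (4.04), and Rai1 to Ffar3 (1.59) and Dleu7 (1.71). Lists where both genes lack a peak count as equal, so the small values of Cdx1 and Rai1 rest mostly on shared absence. Shank2 and Nfix lack the control peak of Zfp703, and Ffar3 and Dleu7 lack the LG268 peak of Rai1.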

How the data were processed

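RXR and H3K27ac were measured by ChIP-seq, and 1 annotated peak list per library was used. BWA 0.6.0, MACS2 2.0.10 and HOMER 4.2, and the builds mm9 and mm10 with no stated role, come from the submitters' processing notes. The annotation column names mm10, per the file headers. Peak caller settings are not given in the sources used here. Each peak has a score deposited by the authors with no stated common scale, so it was turned into a rank within its list and a rank percentile. Nearest gene, distance to the TSS and location are deposited values too. The implied TSS matched the start of a RefSeq (GRCm38.p6) promoter window within 1 bp for Hoxc4 and the upstream start of Rai1. The RefSeq gene bounds matched it within 1 bp for Cdx1 and Zfp703. They lay further out for Hoxc4 (103018097), Rai1 (60104917) and Tshz1 (84087708, against an implied TSS at 84086562).

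Peaks of the 5 genes were merged into sites by an overlap of at least 1 bp over the 8 RXR lists, and likewise over the 4 H3K27ac lists, and looked up in every list. Counts stand beside the same count over all merged regions or all genes named in any list. No test was made: 8 groups have 1 library, and the days have 2. The genes and gene lists were chosen with earlier results of these data known. Beside the 5 genes, the text names by rule the 2 genes closest in pattern to each and up to 6 genes of best rank from the retinoid and paralogue lists. Some genes the rule names are in the counts and are not reported here by name. Gm30528, Srebf1, Zadh2, Hoxc5, Hoxc9 and the neighbours in the closing section were named after their values were seen. The alternatives were 50% reciprocal overlap, centres within 200 bp, the upper 50% of each list by score, ES lists of equal length (940 RXR and 12472 H3K27ac peaks), windows of 100 and 10 kb, no repeat peaks, and each day replicate left out. Merging and counting were tested on simulated intervals. Work was done in Python 3.11.15 with pandas 2.3.3, numpy 2.4.6 and matplotlib 3.10.9.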

Additional observations from a re-analysis of the deposited data

How the results depend on the processing

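Of 167 recomputed counts, 128 stayed within 1.5 times the value as reported and 39 did not. Many of the 128 could not move, so this tally is no measure of stability. A count of 0 stays 0 when peaks are taken out, and gene counts do not depend on how peaks are merged. Equal length was set for the ES lists only, which leaves the day counts as they were. With peaks limited to 10 kb from the TSS, genes with a peak numbered 3 with RA, 1 and 2 in the day 8 replicates and 0 in day 16 replicate 1. Sites numbered 3 in the control, 5 with LG268, 3 with RA, 3 and 5 at day 8 and 0 in day 16 replicate 1, RA sites without a control peak 1, and sites under H3K27ac 1 in each of the 4 lists. With the upper 50% of each list by score, RA had 3 genes and day 16 replicate 1 had 0, sites numbered 3 in the control, 5 with LG268 and 0 in day 16 replicate 1, and 1 site lay under H3K27ac in each list. With ES lists of equal length RA had 3 genes, LG268 had 5 sites and 1 site without a control peak, and 1 site lay under GW3965 H3K27ac. With 50% reciprocal overlap sites under H3K27ac numbered 0 in the control, 1 with GW3965, 0 with LG268 and 0 with RA, and with centres within 200 bp 1, 1, 0 and 1. Retinoid pathway genes within 100 kb numbered 1 in each day 16 replicate. Leaving out 1 replicate gave 9 to 13 day 8 sites and 0 to 1 day 16 sites: the 13 came without day 8 replicate 1 and the 1 without day 16 replicate 2. No test was made of the day counts, and the day libraries share only a replicate number. The mean day 8 count exceeded that of day 16 by 10.5 sites. The replicate block takes the difference within each replicate number, which was 8 and 13 sites. Its mean equals 10.5 by arithmetic and is no further check. Depth is unknown and limits every absence.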

Other observations

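RXR regions assigned to other genes lay around the 5 genes. Within 300 kb of the Zfp703 sites there were 6 regions nearest to 2310008N11Rik, each in 1 to 4 of the ES and day 8 lists, with best percentiles of 17.0 to 75.3, and 1 nearest to Prosc, found in all 4 ES lists and day 8 replicate 2 (best percentile 90.6). Past the Hoxc4 sites, a region nearest to Smug1 (chromosome 15, 103168993 to 103169376) had a peak with RA and in both day 8 replicates and none in the control, with a best percentile of 96.6. Next to Rai1, the Srebf1 region 105.6 kb from the upstream Rai1 start was found in all 8 lists, with a best percentile of 98.9. Near Cdx1 there were 4 regions: 1 nearest to Pde6a in the control, LG268, RA and day 8 replicate 2 lists (best percentile 87.1), 1 nearest to Slc6a7 in the control list alone (68.4), and 2 in the GW3965 list alone, nearest to Rps14 (91.0) and Arsi (23.5).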
